A study of Mus musculus with 6 samples.

Results

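Transcripts of 47 genes of the autophagy core and the lysosome were followed in activated mouse T cells labelled as wild type or as knockout for Drp1, a GTPase of the dynamin family that cuts mitochondria in fission. The genes were taken from a written list by exact match of their symbol to the deposited table of raw counts, and all 47 were found among its 45808 rows. T cells from the spleens of C57BL/6-background mice, aged 2 months, were stimulated in culture with antibodies against CD3 and CD28 together with IL-2, the T cell growth factor, and their poly(A) RNA was sequenced. One group of 3 libraries carries the genotype label wild type and the other 3 carry the label Drp1-/-, called KO here after that label. Both groups had the same strain background, age, tissue and activation. How the Drp1 allele was removed, and in which cells, is not given in the sources used here. The labels do not say whether the replicates came from separate mice or cultures, so a p-value here covers the spread among these samples alone, and that spread may be technical.

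Autophagy delivers cytoplasm and organelles to lysosomes. The ULK1 kinase complex starts it, a class III PI3 kinase complex marks the forming membrane with the lipid PI3P, ATG9 vesicles and ATG2 proteins supply lipid, WIPI proteins read PI3P, and a ubiquitin-like conjugation system attaches ATG8 proteins (the LC3 and GABARAP families) to the growing membrane. The closed vesicle fuses with a lysosome, whose interior is kept acidic by the V-ATPase proton pump. There, cathepsins and other hydrolases break down the content of the vesicle. TFEB and TFE3 are transcription factors for many of these genes, and activated T cells use autophagy in nutrient supply and in clearing damaged mitochondria.

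Total counts ran from 24738017 to 34730475 per library, and 14209 genes passed the expression filter. Dnm1l, the gene of Drp1, averaged 119 ± 3.76 in the wild-type libraries and 95.4 ± 4.57 in the KO libraries, in counts per unit of library size (CPM, scaled by library total and normalization factor; SD, n = 3 each), a log2 fold change of -0.32. The libraries labelled Drp1-/- thus kept 80.3% of the wild-type level of this transcript, and the counts do not show its complete loss. Which exons were deleted is not given in the sources used here, and reads from the rest of the gene would not check the deletion. Wild-type replicates 2 and 3 were much alike (chi-square per gene 2.43), and replicate 1 differed more from each of them (11.2 and 12.5). Xist, transcribed from the inactive X chromosome of female cells, was at 0 to 3 counts in wild type and 12950 to 16862 in KO, while 4 Y-linked genes summed to 12484 to 13424 counts in wild type and 8799 to 10759 in KO. Both female-specific and Y-linked transcripts were thus read in the KO libraries, and the mix of sexes and the genotype cannot be told apart. Of 8 T cell markers, 7 fell in KO, and their summed level was 2974.1 to 3109.8 CPM over the wild-type libraries and 2388.7 to 2509.1 CPM over the KO libraries. Markers of platelets summed to 7.58 to 9.67 CPM over the wild-type and 19.9 to 22.9 CPM over the KO libraries, those of mast cells and basophils to 2.38 to 3.02 and 10.3 to 13.4 CPM, and those of gamma-delta T cells to 41.5 to 48.1 and 98.7 to 117.9 CPM. Macrophage and monocyte markers, a cell type rich in lysosomes, summed to 28.5 to 31.9 CPM over the wild-type and 22.5 to 25.4 CPM over the KO libraries. Most of that sum was Cd68 and Itgam, which fell. Lyz2 rose (log2 1.36, adjusted p 0.0076) at levels under 1 CPM, Cd14, too low to be tested, was at 0 to 0.0852 CPM over the wild-type and 0.161 to 0.209 CPM over the KO libraries, and Fcgr1, C1qa, C1qb and Marco were at 0 in all 6 libraries. The part of the other cell types in the results below was not tested. In bulk RNA, fewer cells of a type and less RNA per cell cannot be told apart.

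Among the 47 autophagy and lysosome genes, 26 (55.3%) were lower in KO at an adjusted p under 0.05 by edgeR's quasi-likelihood test, where 26.1% of all tested genes were lower. Only 1 of the 47 (2.13%), Gusb, was higher, where 26.7% of all tested genes were higher, and 20 did not pass. All 47 had passed the expression filter. A fall of at least 1.5-fold was found for 6 members (12.8%), namely Wipi1, Atg14, Map1lc3b, Atg12, Wipi2 and Npc2, against 7.38% of all tested genes. All 3 KO libraries lay below all 3 wild-type libraries for 29 members (61.7%), against 30.8% of all tested genes, and above them for 4 members (8.51%), against 32.5%. The median log2 fold change (KO over wild type) was -0.22 over the members and 0.01 over all tested genes. The members that passed changed by 0.14 to 1.14 on the log2 scale with a median of 0.47, and those that did not pass differed by 0.01 to 0.20 with a median of 0.05. With library totals alone as the scaling, the median moved to 0.08 over all genes and to -0.15 over the members, with 24 members lower and 4 higher.

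**Figure D1:**
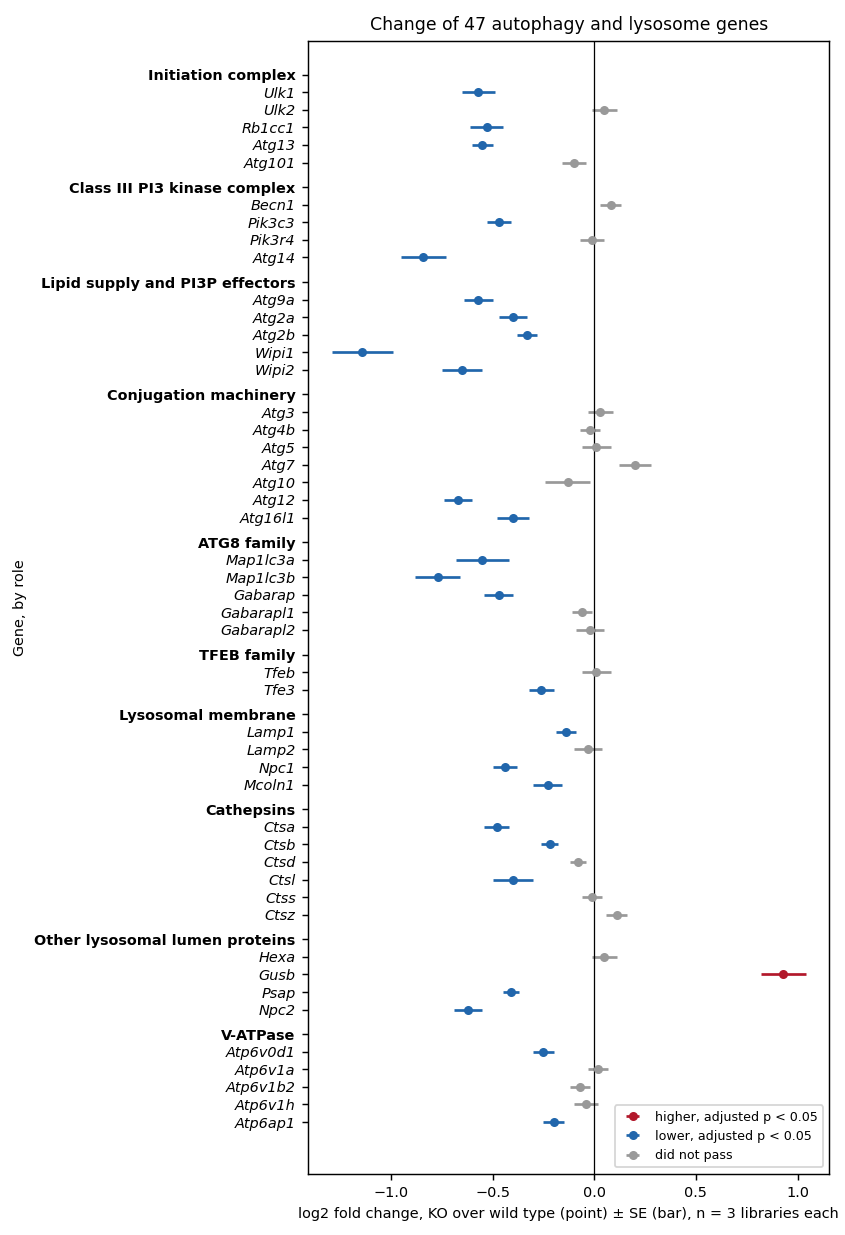
The log2 fold change of each of the 47 genes, KO over wild type, is plotted on the horizontal axis with its SE as a bar (n = 3 libraries per group), and genes stand in rows by role. The values run from -1.14 for Wipi1 to 0.93 for Gusb, and Gusb is the only gene called on the higher side.

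In the initiation complex, 3 of 5 genes fell (60%, against 26.1% of all tested genes). The role groups here and below hold few genes, and no test was made on their shares. Ulk1, the kinase that starts autophagosome formation (chromosome 5, 110784488 to 110810097, mm10), was at 99.4, 80.3 and 82.6 CPM in the wild-type libraries and at 63.5, 57.3 and 55.9 CPM in the KO libraries, given here and below in the order of replicates 1, 2 and 3. The KO libraries all lay below the wild-type ones, and the mean fell by 32.5%, with a log2 fold change of -0.57 ± 0.08 (SE) and an adjusted p of 0.000385. Atg13, the adaptor that links the kinase to its complex (chromosome 2, 91674618 to 91710576), had the smallest adjusted p of the members. It was at 68.2, 64.7 and 63.3 CPM in wild type and 46.0, 43.8 and 44.0 CPM in KO, a log2 fold change of -0.55 ± 0.05 with an adjusted p of 5.06e-05. Each group spanned a few CPM and the gap between them was wider than either span. Rb1cc1, which encodes the scaffold FIP200, was at 86.3, 71.2 and 72.9 CPM in wild type and 55.0, 50.4 and 54.2 CPM in KO (-0.53 ± 0.08, adjusted p 0.000327). As for Ulk1, wild-type replicate 1 was the highest library and no KO library reached the wild-type range. Neither Ulk2, the paralog of Ulk1 (log2 0.05 ± 0.06, adjusted p 0.478), nor Atg101, the partner of ATG13 (-0.10 ± 0.06, adjusted p 0.2), passed. Per kilobase of exons, Ulk1 made up 68.2 ± 3.71% of the summed Ulk1 and Ulk2 level in wild type and 58.3 ± 2.06% in KO (SD, n = 3), and the groups did not overlap.

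The class III PI3 kinase complex was split between its subunits. Atg14, which targets the complex to the site of autophagosome formation (chromosome 14, 47540893 to 47570649), was at 25.6, 21.8 and 19.7 CPM in wild type and 13.0, 11.1 and 13.2 CPM in KO. Its fall of 44.0% (log2 -0.84 ± 0.11, adjusted p 0.000172) left the highest KO library below the lowest wild-type one. Pik3c3, the lipid kinase VPS34 itself, was at 62.3, 59.4 and 55.4 CPM in wild type and 42.9, 42.9 and 41.7 CPM in KO. The KO libraries lay within about a CPM of each other and below the wild type, with a log2 fold change of -0.47 ± 0.06 and an adjusted p of 0.000144. Becn1, the shared regulatory subunit Beclin 1 (chromosome 11, 101285952 to 101302286), was at 132.7, 127.7 and 125.5 CPM in wild type and 135.0, 134.5 and 139.1 CPM in KO. The KO libraries of Becn1 were the higher ones, without overlap, but the difference did not pass (0.08 ± 0.05, adjusted p 0.157) except with library totals alone as the scaling (0.16, adjusted p 0.0114). Of its exon bases 43.9% also lie in exons of Cntd1 on the opposite strand. Pik3r4, the regulatory kinase VPS15, did not pass either (-0.01 ± 0.06, adjusted p 0.854).

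All 5 members that supply lipid to the membrane or read PI3P fell (100%, against 26.1% of all tested genes). Wipi1, a PI3P-binding protein of the forming membrane (chromosome 11, 109573331 to 109611967), had the largest fall of the members: it was at 16.0, 12.2 and 11.7 CPM in wild type and 7.06, 5.16 and 5.74 CPM in KO. The mean fell by 54.6% (log2 -1.14 ± 0.15, adjusted p 0.000185), and the groups were well separated although replicate 1 was highest in each. Wipi2, the paralog that recruits ATG16L1, fell from 143 ± 23.0 to 90.8 ± 4.96 CPM (SD, n = 3; log2 -0.65 ± 0.10, adjusted p 0.000397). Atg9a, the lipid scramblase of the donor vesicles, was at 45.2, 39.2 and 41.8 CPM in wild type and 29.6, 26.5 and 28.6 CPM in KO. This was a log2 fold change of -0.57 ± 0.07 with an adjusted p of 0.000145 and no overlap, and 31.8% of its exon bases are shared with the transcript Gm29253 on the same strand. Atg2b, one of 2 lipid transfer proteins of the ATG2 type, was at 157.6, 153.1 and 159.2 CPM in wild type and 129.9, 121.4 and 121.5 CPM in KO, a smaller fall (-0.33 ± 0.05, adjusted p 0.000335) that still left all KO libraries lowest. Atg2a, the other, fell likewise (-0.40 ± 0.07, adjusted p 0.000643).

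Most of the conjugation machinery did not pass: 2 of 7 genes fell, a share of 28.6% that is close to the 26.1% of all tested genes. Atg12, the ubiquitin-like protein that is joined to ATG5 (chromosome 18, 46730144 to 46741580), was at 97.3, 83.8 and 80.8 CPM in wild type and 55.6, 51.9 and 56.4 CPM in KO. All KO libraries lay far below the wild type, with a log2 fold change of -0.67 ± 0.07 and an adjusted p of 8.52e-05. Atg16l1, which places the ATG12 and ATG5 conjugate on the membrane, fell from 74.8 ± 10.1 to 56.8 ± 0.808 CPM (-0.40 ± 0.08, adjusted p 0.00268). The others were Atg5, the acceptor of ATG12 (0.01), the E2-like enzymes Atg3 (0.03) and Atg10 (-0.13), the ATG8 protease Atg4b (-0.02) and the E1-like enzyme Atg7 (0.20 ± 0.08, adjusted p 0.0528). The Atg7 mean was 18.8 ± 1.74 CPM for wild type against 21.7 ± 1.05 CPM for KO, without overlap of the libraries, and it passed as higher under 5 of 14 alternative settings. The log2 interval of 95% was -0.18 to 0.20 for Atg5, -0.13 to 0.19 for Atg3 and -0.02 to 0.42 for Atg7.

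**Figure D2:**
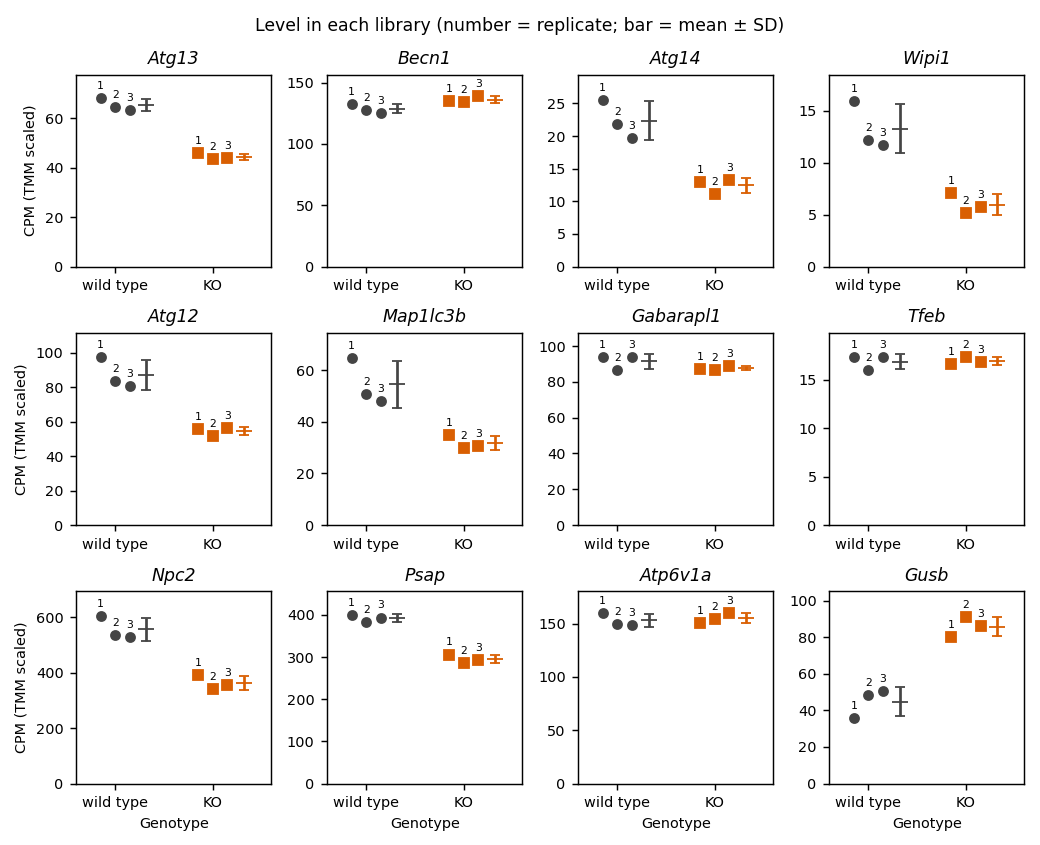
Each panel plots 1 of 12 members, with its level in CPM from 0 upward on the vertical axis, 3 wild-type points and 3 KO points numbered by replicate, and the mean ± SD as a bar beside them. The KO points of Atg13, Atg14, Wipi1, Atg12, Map1lc3b, Npc2 and Psap lie below all wild-type points, those of Gusb and, by a narrow margin, Becn1 lie above, and those of Gabarapl1, Tfeb and Atp6v1a overlap them.

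Transcripts of the ATG8 proteins, the membrane tags that bind cargo receptors, fell for 3 of 5 genes (60%, against 26.1% of all tested genes). Map1lc3b, the widely used autophagosome marker LC3B (chromosome 8, 121590361 to 121598760), was at 64.6, 50.8 and 47.9 CPM in wild type and 34.8, 30 and 30.7 CPM in KO. The fall of 41.3% (log2 -0.77 ± 0.11, adjusted p 0.000264) exceeded the spread among the wild-type libraries, of which replicate 1 was the highest. Map1lc3a, its paralog (chromosome 2, 155276297 to 155278073), was lower per kilobase of exons and stood at 5.496, 5.44 and 4.63 CPM in wild type and 3.78, 3.06 and 3.74 CPM in KO. It too fell without overlap (-0.55 ± 0.13, adjusted p 0.00528). Gabarap, which acts late in vesicle closure and fusion, fell from 187 ± 18.3 to 135 ± 5.65 CPM (-0.47 ± 0.07, adjusted p 0.00038). Gabarapl1 (chromosome 6, 129533160 to 129542346) was at 93.7, 86.9 and 93.7 CPM in wild type and 87.3, 86.6 and 88.9 CPM in KO. These libraries overlapped (-0.06, adjusted p 0.331, 95% interval -0.20 to 0.08), and 28.3% of its exon bases lie opposite exons of 1700101I11Rik. Gabarapl2 overlapped as well (-0.02, adjusted p 0.873).

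The make-up of the ATG8 transcript pool differed between the groups. Summed per kilobase of exons, the 5 genes reached 164.8 ± 11.98 CPM per kilobase in wild type and 130.4 ± 3.79 in KO (SD, n = 3). Gabarap held 61.5 ± 1.67% of that sum in wild type and 56.3 ± 0.899% in KO, and Map1lc3b held 4.38 ± 0.390% and 3.24 ± 0.165%. Gabarapl1 held 27.6 ± 1.89% in wild type and 33.4 ± 1.06% in KO, and Gabarapl2 3.82 ± 0.312% and 4.76 ± 0.1001%. The shares of wild-type and KO libraries did not overlap for any of the 5 genes, with no test made on shares. Shares of a sum are tied to each other, so those of Gabarapl1 and Gabarapl2 rise when the other genes fall. The levels of these 2 genes themselves overlapped between the groups. The share of Map1lc3b depends on the length taken for it: by the median length of its coding transcripts, chosen after seeing the data, it was 10.1% in wild type and 7.48% in KO.

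**Figure D3:**
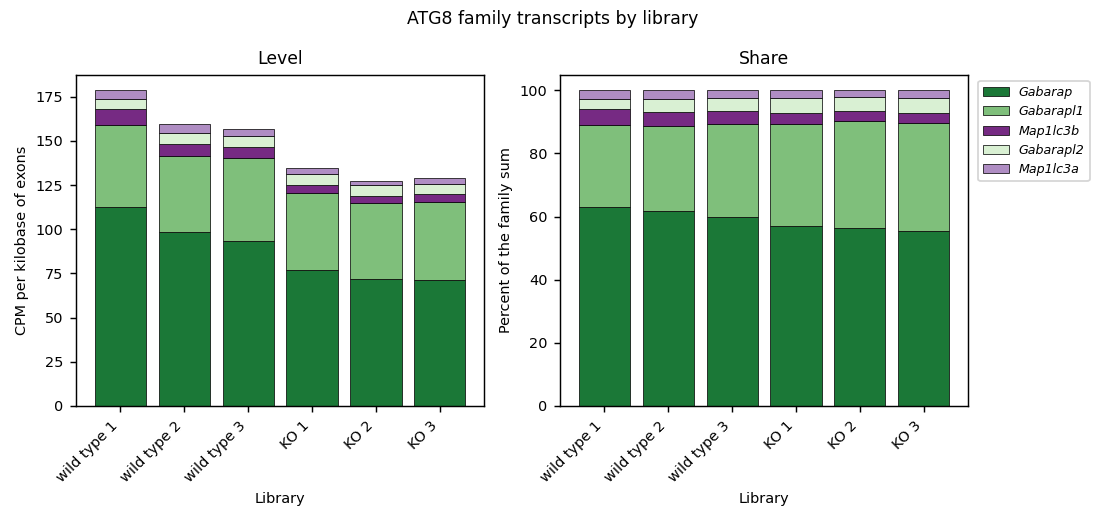
For each library, the left bars stack the level of the 5 ATG8 genes in CPM per kilobase of exons, and the right bars show each gene's percent of that sum. The 3 KO sums, 127.4 to 134.6, lie below the 3 wild-type sums, 156.6 to 178.5, and the Gabarapl1 share is larger in each KO library.

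Of the transcription factors for lysosomal genes, Tfeb (chromosome 17, 47737030 to 47792419) was at 17.3, 16.0 and 17.3 CPM in wild type and 16.6, 17.4 and 16.8 CPM in KO. The libraries were interleaved (log2 0.01, adjusted p 0.945, 95% interval -0.18 to 0.19). Tfe3, its X-linked relative (chromosome X, 7762560 to 7775202), was at 48.2, 44.6 and 46.4 CPM in wild type and 40.0, 37.4 and 39.1 CPM in KO. It fell without overlap (-0.26 ± 0.06, adjusted p 0.00326), and as an X-linked gene it is one of 3 members, with Lamp2 and Atp6ap1, on the chromosome for which Xist differed between the groups. Both proteins are controlled largely by their move into the nucleus, which RNA does not show.

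TFEB and TFE3 bind an E-box in lysosomal promoters, so these were searched for the letters CACGTG and for the longer TCACGTGA, which contains the shorter; both read the same on either strand. RefSeq promoters (GRCm38.p6, the assembly that mm10 stands for), from 250 bases before to 50 bases after a start site, were matched for 37 of the 47 members. CACGTG occurred in 11 of these 37 (29.7%), in 11.8% of 9675 tested genes with a promoter and in 7.15% of 32851 promoters. TCACGTGA occurred in 6 (16.2%), namely Atg3, Atp6v0d1, Atp6v1a, Ctsa, Ctsd and Mcoln1, against 2.24% of tested genes and 0.974% of promoters. A gene was counted if any of its promoters held the motif (the 37 members have 42 promoters). The shares of tested genes are therefore the like comparison, and those of single promoters are not. The stretches around the match are shown 5′ to 3′ on the gene's strand with the motif in capitals, first for the lysosomal membrane gene Lamp1, which has 4 copies of the shorter motif, then for 3 genes with the longer one that fell and 3 that did not pass. They lie at chr8:13159086-13159160 (Lamp1, plus strand), chr8:3500462-3500491 (Mcoln1, plus), chr2:164833743-164833772 (Ctsa, plus), chr8:105566061-105566120 (Atp6v0d1, minus), chr7:142387908-142387937 (Ctsd, minus), chr16:44139373-44139402 (Atp6v1a, minus) and chr16:45158719-45158778 (Atg3, plus).
Lamp1: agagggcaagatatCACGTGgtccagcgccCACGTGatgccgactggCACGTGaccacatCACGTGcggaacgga
Mcoln1: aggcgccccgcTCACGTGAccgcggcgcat
Ctsa: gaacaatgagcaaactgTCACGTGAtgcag
Atp6v0d1: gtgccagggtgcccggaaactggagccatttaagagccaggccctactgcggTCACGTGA
Ctsd: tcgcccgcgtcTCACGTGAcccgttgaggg
Atp6v1a: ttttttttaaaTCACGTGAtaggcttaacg
Atg3: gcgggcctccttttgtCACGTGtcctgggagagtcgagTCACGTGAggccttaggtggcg

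Of the 6 members with the longer motif 3 were lower in KO, and of the 31 without it 16 were. Among all 217 tested genes with it, 76 (35%) were lower and 51 (23.5%) higher, where 26.1% and 26.7% of all tested genes were. The latter shares are over all 14209 tested genes, and those over the 9675 with a promoter were not computed. The shorter motif gave the opposite order over the 1139 tested genes that hold it, with 322 lower (28.3%) and 385 higher (33.8%). Of the 11 members with the shorter motif 6 were lower, and of the 26 without it 13 were. In Lamp1 the 4 copies begin at -61, -45, -28 and -15, where -1 is the last base before the RefSeq start site. The stretches shown for Mcoln1, Ctsa, Ctsd and Atp6v1a lie inside the gene spans that GENCODE gives, which start farther upstream. Ctsa has a further copy of the longer motif just after its RefSeq start site, which is not shown. A match is a description of the letters and says nothing of binding in these cells.

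At the lysosomal membrane, 3 of 4 genes passed as lower (75%, against 26.1% of all tested genes). Npc1, the transporter that exports cholesterol from the lysosome (chromosome 18, 12189692 to 12236400), was at 172.3, 153.6 and 156.4 CPM in wild type and 120.8, 114.6 and 119.3 CPM in KO. It fell by 26.4% (log2 -0.44 ± 0.06, adjusted p 0.000164), with the KO libraries close together and all lowest. Lamp1, a main glycoprotein of the lysosomal membrane whose promoter is shown above, was at 122.2, 115.4 and 115.0 CPM in wild type and 106.6, 104.3 and 109.0 CPM in KO. Its groups did not overlap, but the difference was the smallest that passed (-0.14 ± 0.05, adjusted p 0.0319), and it no longer passed without wild-type replicate 2 or without any one of the KO replicates. Mcoln1, the calcium channel TRPML1, went from 30.4 ± 0.867 to 26.0 ± 2.22 CPM (-0.23 ± 0.07, adjusted p 0.0208), and did not pass without KO replicate 2 or without KO replicate 3. Lamp2, the partner of Lamp1 (chromosome X, 38401357 to 38456454), was at 65.1, 55.1 and 60.6 CPM in wild type and 57.9, 55.8 and 63.2 CPM in KO. The libraries of Lamp2 overlapped over most of their range (-0.03, adjusted p 0.749).

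The cathepsins, proteases of the lysosome, were split evenly between 3 that fell (50%, against 26.1% of all tested genes) and 3 that did not pass. Ctsa, the serine carboxypeptidase that also stabilizes other lysosomal enzymes (chromosome 2, 164832873 to 164841032), was at 93.0, 83.1 and 84.4 CPM in wild type and 65.2, 61.1 and 60.4 CPM in KO. It fell by 28.3% without overlap (log2 -0.48 ± 0.06, adjusted p 0.000161). Ctsb fell from 215 ± 2.97 to 184 ± 2.10 CPM (-0.22 ± 0.04, adjusted p 0.00152), and Ctsl from 13.1 ± 1.497 to 9.84 ± 0.481 CPM (-0.40 ± 0.10, adjusted p 0.00565). Both are cysteine proteases, and 26.8% of the exon bases of Ctsl lie opposite the antisense gene Gm47123. Ctsd, the aspartic protease (chromosome 7, 142375911 to 142388038), was at 290.5, 299.2 and 290.0 CPM in wild type and 274.8, 284.2 and 273.3 CPM in KO. The KO libraries lay below the wild type, but by only 5.38% of the mean, and the difference did not pass (-0.08 ± 0.04, adjusted p 0.136). Ctss, which trims the MHC class II invariant chain in antigen-presenting cells, was at 76.7, 78.1 and 82.4 CPM in wild type and 76.9, 79.7 and 79.6 CPM in KO, an interleaved order (-0.01, adjusted p 0.917). Ctsz was at 139 ± 6.53 and 151 ± 4.16 CPM (0.11 ± 0.05, adjusted p 0.0815). Per kilobase of exons, Ctsd had the largest share of the 6 cathepsins, 37.2 ± 0.688% in wild type and 36.2 ± 0.405% in KO, and these overlapped. The share of Ctsz was 28.8 ± 0.885% and 32.1 ± 0.626% without overlap, and a share also rises when the other genes of the sum fall. For Ctsd, 34.4% of exon bases are shared with the same-strand gene Gm49369.

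Among the other proteins of the lysosomal lumen, 2 of 4 fell (50%) and 1 rose (25%). Of all tested genes 26.1% were lower and 26.7% higher. Npc2, the soluble cholesterol carrier that works with NPC1 (chromosome 12, 84754562 to 84773152), was at 604.6, 534.3 and 527.2 CPM in wild type and 390.4, 340.9 and 354.1 CPM in KO. The fall of 34.8% (log2 -0.62 ± 0.07, adjusted p 8.18e-05) was larger than the spread within either group, and replicate 1 was the highest in both. Psap, the precursor of the saposins that present sphingolipids to their hydrolases (chromosome 10, 60277627 to 60302597), was at 400.0, 382.5 and 393.8 CPM in wild type and 306.0, 286.6 and 292.0 CPM in KO. Its groups were each narrow and far apart (-0.41 ± 0.04, adjusted p 8.63e-05). Gusb, the beta-glucuronidase that breaks down glycosaminoglycans (chromosome 5, 129989011 to 130003049), was at 35.6, 48.4 and 50.4 CPM in wild type and 80.4, 91.0 and 85.9 CPM in KO. It was 90.7% higher in KO (0.93 ± 0.11, adjusted p 0.000121), wild-type replicate 1 was its lowest library, and without that replicate the log2 fold change was 0.79. Hexa, a subunit of beta-hexosaminidase, did not pass (0.05 ± 0.06, adjusted p 0.48).

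Of the 5 V-ATPase genes, 2 (40%) fell by a small amount, where 26.1% of all tested genes were lower. Atp6v0d1, of the membrane sector, went from 68.1 ± 1.52 to 57.3 ± 2.05 CPM (log2 -0.25 ± 0.05, adjusted p 0.00233). Atp6ap1, an accessory subunit on chromosome X, went from 89.8 ± 2.45 to 78.4 ± 0.318 CPM (-0.20 ± 0.05, adjusted p 0.00556). Atp6v1a, the catalytic subunit of the cytosolic sector (chromosome 16, 44085402 to 44139705), was at 160.3, 149.8 and 149.1 CPM in wild type and 150.6, 154.5 and 159.9 CPM in KO. Its libraries were interleaved (0.02, adjusted p 0.773, 95% interval -0.12 to 0.16). The other cytosolic subunits Atp6v1b2 (-0.07, adjusted p 0.237) and Atp6v1h (-0.04, adjusted p 0.586) did not pass.

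The falls had a common order over libraries. Wild-type replicate 1 was the highest wild-type library for 24 of the 26 lowered members, and KO replicate 1 was the highest KO library for 21. These counts were not made over all lowered genes, so whether this order is particular to the members was not tested. Taken as log2 CPM less each gene's mean over the 6 libraries, the 47 members averaged 0.18, 0.09 and 0.09 over the wild-type libraries and -0.10, -0.15 and -0.12 over the KO libraries. Wild-type replicate 1 was thus farther from KO than the other wild-type libraries, and the other 2 were also above all KO libraries. Without wild-type replicate 1, the calls of all 47 members were the same and their median log2 fold change was -0.21. The largest falls were smaller without it: Wipi1 went from -1.14 to -0.99, Atg14 from -0.84 to -0.73 and Map1lc3b from -0.77 to -0.63. Atg12 went from -0.67 to -0.59, Wipi2 from -0.65 to -0.52 and Npc2 from -0.62 to -0.55. Wipi2 and Npc2 then missed the fold threshold used above. No lowered member fell further without that replicate, and Atg2b (-0.33) and Ctsb (-0.22) kept their values. Averaged by role, the lipid supply and PI3P effector genes had the widest separation, from 0.46 in wild-type replicate 1 to -0.40 in KO replicate 2. The averages of the V-ATPase, TFEB family, cathepsin and other lumen protein groups stayed within 0.11 of 0. In the lumen protein group, the rise of Gusb offset the falls of Npc2 and Psap.

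**Figure D4:**
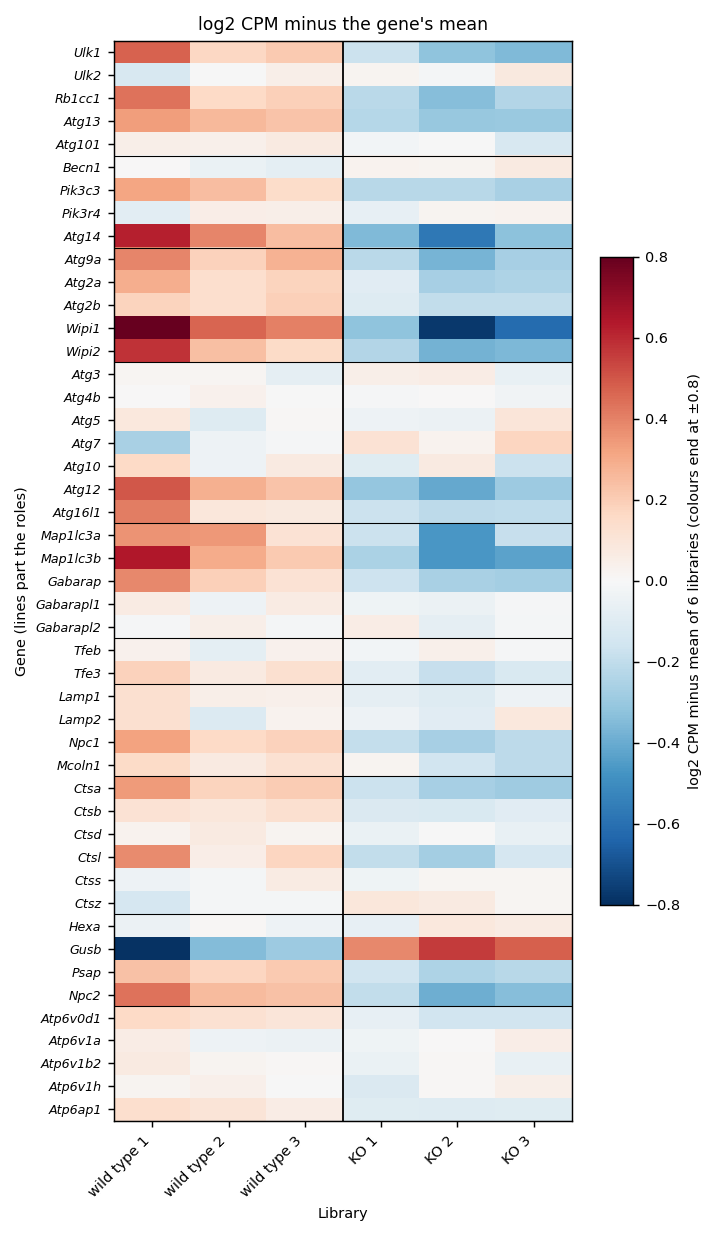
Each cell shows a member's log2 CPM in a library less its mean over the 6 libraries, with genes in rows by role, libraries in columns, red for above and blue for below the mean, and colours that end at 0.8 either way. The members average 0.18, 0.09 and 0.09 in the wild-type columns and -0.10, -0.15 and -0.12 in the KO columns, and Gusb has the opposite pattern.

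Beyond the 47 members, 138 further genes of the pathway were listed in 7 groups, of which 131 were tested. Of these 52 were lower in KO (39.7%), 18 were higher (13.7%) and 61 did not pass, against 26.1% lower and 26.7% higher among all tested genes, with a median log2 fold change of -0.09. The cargo receptors, which bridge ubiquitinated or organelle cargo to ATG8 proteins, had the largest share of falls of these 7 groups, 9 of 12 with none higher. Here and in what follows, values in brackets with ± are log2 fold changes with their SE, and CPM values are means ± SD over 3 libraries. Calcoco1, a receptor for the endoplasmic reticulum, fell from 49.6 ± 2.05 to 25.5 ± 3.31 CPM (-0.96 ± 0.09, adjusted p 4.01e-05), and Sqstm1, which encodes p62, fell from 167 ± 12.7 to 120 ± 2.81 CPM (-0.48 ± 0.06, adjusted p 0.000165).

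Of 19 other genes of the autophagy machinery 7 were lower (36.8%) and 2 higher (10.5%). Atg16l2, the paralog of Atg16l1, fell from 151 ± 16.6 to 82.8 ± 6.91 CPM (-0.87), and Tecpr1, which binds the ATG12 and ATG5 conjugate, fell by 0.50 on the log2 scale. Vmp1, a scramblase of the endoplasmic reticulum, was higher by 0.16 on that scale (adjusted p 0.0272) and Ei24 by 0.17 (adjusted p 0.0223). A mixed group of 15 held genes of nutrient sensing upstream of TFEB (folliculin and its partners, Rag GTPases, Ragulator) and the transcription factors Mitf, Foxo1, Foxo3 and Zkscan3, and gave 5 lower (33.3%) and 2 higher (13.3%). Those lower were Flcn, Fnip1, Rragd, Foxo1 and Foxo3. Rragd, a Rag GTPase that is itself a TFEB target, fell from 17.2 ± 4.44 to 8.37 ± 0.252 CPM (-1.03 ± 0.15), and Foxo3, a transcription factor for autophagy genes, fell from 125 ± 13.5 to 81.1 ± 5.94 CPM (-0.62 ± 0.08). Fnip2, a partner of folliculin, rose from 6.23 ± 0.745 to 10.2 ± 0.272 CPM (0.70 ± 0.10), and the Rag GTPase Rraga rose by 0.28 on the log2 scale.

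Lysosomal genes outside the members moved in both directions. Of 36 other lysosomal enzymes 13 were lower (36.1%) and 8 higher (22.2%), the latter near the 26.7% of all tested genes. Smpd1, the acid sphingomyelinase, fell from 104 ± 8.95 to 60.3 ± 2.66 CPM (-0.78 ± 0.07, adjusted p 3.5e-05), while the alpha-mannosidase Man2b1 rose by 0.22 and the sulfatase Arsb by 0.29 on the log2 scale. Of 20 other lysosomal membrane proteins 9 were lower (45%) and 2 higher (10%), with Laptm5, a lysosomal protein of blood cells, going from 1653.4 ± 81.4 to 1275.1 ± 36.1 CPM (-0.37) and Scarb2, a lysosomal transport receptor, also lower (-0.49). The potassium and proton channel gene Tmem175 rose by 0.56 and the channel gene Tpcn2 by 0.29 on the same scale. Of 14 other V-ATPase subunits 5 were lower (35.7%), among them Atp6v0e (-0.36) and Atp6v1d (-0.32), and 1, Atp6v1c1, was higher (0.24). Of 15 genes for delivery to lysosomes 4 were lower (26.7%) and 3 higher (20%), shares near those of all tested genes. The tethering subunits Vps11 (-0.31) and Vps41 (-0.25) fell, and the late endosomal GTPase Rab7 (0.24) and Nagpa (0.60), which uncovers the mannose 6-phosphate tag, rose.

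**Figure D5:**
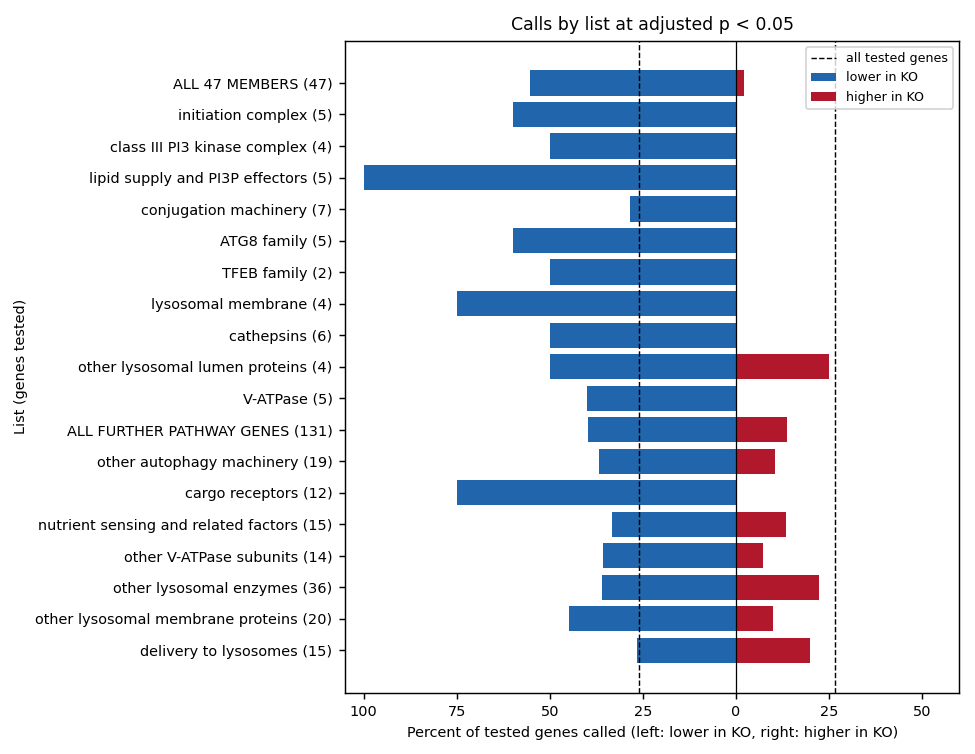
The percent of tested genes called lower (left) or higher (right) in KO at an adjusted p under 0.05 is plotted for each role group and each further pathway list, with the number of tested genes in brackets and broken lines at the 26.1% and 26.7% of all tested genes. The bar of the 47 members reaches 55.3% on the left and 2.13% on the right, and the cargo receptors reach 75%.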

How the data were processed

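RNA was measured in 3 wild-type and 3 Drp1 KO libraries, grouped by the sample labels. Per the labels' protocols, the library kit was a stranded one for mRNA. Raw counts by gene symbol were deposited by the authors in 1 table. The tools in the submitters' processing notes are STAR 2.5.2, HTSeq 0.6.1, Cufflinks, DESeq2 1.12 and FastQC, and the genome is mm10, with no role or order. Not given in the sources used here were the annotation release, the strand setting of counting and the treatment of reads that match several genes. Reads of overlapping, antisense and paralogous genes (among them Map1lc3a and Map1lc3b or Gabarap and Gabarapl1) may not be separated. In 27 rows, with 0.241% of counts, a spreadsheet had turned the symbol into a date, and these stayed in the totals unnamed.

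The whole table was fitted with edgeR 4.0.16 in R 4.3.3 (TMM factors 0.949 to 1.03, filterByExpr, quasi-likelihood F test with 4 residual degrees of freedom). The Benjamini-Hochberg adjustment ran over 14209 genes that held 99.9% of counts. The procedure had first been run on simulated data. Far fewer genes changed there than were called here, so that run does not check the scaling of these data. The biological coefficient of variation was 6.13%. CPM values use the TMM factors and are given as mean ± SD, and 3 counts correspond to 0.0864 to 0.121 CPM. Intervals of 95% for log2 fold changes come from the SE with 4 degrees of freedom. They are wider than the test itself implies. For Atg7 the interval holds 0, while the unadjusted p of the quasi-likelihood F test was 0.0282. Positions and exon lengths (the union of a gene's exons) are from GENCODE of the mm10 assembly, and promoters from RefSeq.

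The members and lists were chosen with earlier results of these data known. Every member is named. Values per library are given for the 14 with the smallest adjusted p and for 12 central ones whatever their result, and each further list gives up to 2 lowered and 2 raised genes of smallest p. The values of 1 gene that this rule names are not reported here, though it counts in the totals. The further genes were matched by symbol alone: Retreg1 was listed also under its earlier symbol Fam134b, by which it was tested once, so 139 symbols stood for 138 genes, and Rubcn, which the table holds under an earlier symbol, was not used. Alternatives were DESeq2 size factors, upper quartile factors and library totals alone in edgeR, DESeq2 1.42.0, limma-voom (limma 3.58.1), no filter, 1 CPM in 3 libraries, the replicate block, each replicate left out, an adjusted p under 0.01 and a fold of at least 1.5.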

Additional observations from a re-analysis of the deposited data

How the results depend on the processing

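No member changed direction while called under any alternative. The 26 lowered members numbered 24 to 26 under every other tool, scaling, filter, stricter p and left-out replicate, and 6 at a fold of at least 1.5, where 1048 of all genes were lower and 1188 higher. The member called higher (1) became 2 with upper quartile factors, 2 with the filter of 1 CPM in 3 libraries, 2 with the replicate block and 4 with library totals alone, and leaving out a replicate gave 1 to 2. The added calls were Atg7 and, with library totals alone, also Becn1 and Ctsz. Library totals alone made 62% of all calls higher in KO (2870 lower, 4682 higher), against 50.6% with TMM factors. Lamp1 lost its call with upper quartile factors, library totals alone, no filter, without wild-type replicate 2 and without each KO replicate, and Mcoln1 with library totals alone, without KO replicate 2 and without KO replicate 3. The cause was not tested. The replicate numbers were not taken as pairs. Same-numbered libraries correlated in their deviations from the group means by 0.174, 0.125 and 0.0112, which does not settle whether they were pairs. The replicate block left 26 members lower. Over all genes it called 3908 lower and 3992 higher, against 3713 and 3800 without it. Each library correlated best with the one of its own number except wild-type replicate 3. The 20 members that did not pass differed by 0.01 to 0.20 on the log2 scale, and with 3 libraries a group that does not show that they were equal.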
